A study of Mus musculus with 28 samples.

Results

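The regions described here are stretches of mouse transcripts that carried a peak of N6-methyladenosine (m6A) close to the end of the reading frame. Peaks of 14 m6A-seq libraries that overlapped by at least 1 nt on a strand were merged into 33937 regions, and a region was kept when its midpoint lay within 200 nt, counted along the genome, of an annotated stop codon on the same strand (mm10, GENCODE release M21). This rule used position alone and left 5959 stop-codon regions, 17.6% of all regions, which held 63882 of 280967 peaks. They belonged to 5740 genes, and 210 of these genes had more than 1 such region. For 36 regions the nearest stop codon was annotated to more than 1 gene. The limit of 200 nt cut through a continuous set: the 179 regions with a midpoint in the last 10 nt inside the limit had a peak in a median of 14 libraries, as did the 171 regions in the first 10 nt outside it.

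m6A is the most abundant internal modification of mRNA. It is written by a methyltransferase complex built around Mettl3 and Mettl14 at the consensus DRACH (most often GGAC, with the methyl group on the A), removed by demethylases such as Alkbh5, and read by proteins with a YTH domain that act on splicing, translation and decay. Its accumulation around stop codons and in long last exons is the best known feature of its distribution, and exon junction complexes are known to keep it away from sequence close to splice sites.

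m6A-seq immunoprecipitates (IP) fragmented RNA with an antibody to m6A and finds the stretches where IP reads pile up. All animals were first-generation hybrids between PWK/PhJ (PWK) and C57BL/6J (C57), which are both inbred mouse strains. The mother was PWK and the father C57 in the cross named F1i, and the parents were exchanged in the cross named F1r. The peak lists comprised P0 (newborn) cerebellum with 2 libraries, both labelled male, P7 (day 7) cerebellum with 4, P0 cerebrum with 4 and P7 cerebrum with 4, and each group of 4 held an F1i and an F1r library of each sex. Every F1i library thus had an F1r partner of the same tissue, age and labelled sex, 7 pairs in all. All animals were untreated and every one carried both genomes, so that no group was a pure strain. The sources do not say how many animals went into a library, and p-values measure the spread between these libraries only.

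The lists held 16687 to 26208 peaks, and relative IP depth, recovered from the peak statistics and set to a mean of 1, ran from 0.560 to 1.57. All cerebellum libraries formed one batch of m6A-seq and all cerebrum libraries another, according to the study's sample sheet, and the effects of tissue and batch cannot be told apart. A peak needs a transcript, so that presence and strength also follow gene activity, and in bulk tissue fewer cells of a type and less RNA per cell cannot be told apart. All 10 cerebrum markers examined had an exon peak in every cerebrum library and 4 or 5 of them in a cerebellum library, while 6 to 8 of 10 cerebellum markers had one in cerebellum and 3 or 4 in cerebrum. The defining cerebellar markers Gabra6 and Ptf1a had none in any library. Of 7 Hox genes, markers of the hindbrain outside the cerebellum, the cerebellum libraries had peaks on 0, 5, 7, 6, 1 and 4, with the 0 in P0 male F1i and the 1 in P7 female F1i, and each cerebrum library had 0. No peak fell on any of 6 blood genes. The P7 cerebrum library labelled male F1r carried 7 Xist peaks of up to 253-fold and 0 peaks on 4 Y-linked genes, and the library labelled female F1r had 3 Xist peaks of at most 23.2-fold and 1 Y-linked peak. Both go against their sex labels, which form the pairs of the comparison of crosses and the pairs used as a block in an alternative, and the comparison of crosses is given with and without them.

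Of 14 regions that lead the lists described below, 7 had a GGAC within 25 nt of the highest summit: 4 of the 6 strongest and 3 of those called at a single age in cerebrum. Their windows of 29 nt are shown because they hold the motif nearest the summit, and they read 5′ to 3′ on the transcript strand of the C57 reference (mm10), with the GGAC in capitals and its A at the centre.
Jund (chr8:70700095-70700123, plus strand, A 26 nt after the stop codon): gggcgcatgcgcGGACtagctgcggtggg
Nr2f1 (chr13:78189664-78189692, minus strand, A 55 nt after the stop codon): tagagactaagaGGACtctccctgaccaa
Arf6 (chr12:69373216-69373244, plus strand, A 89 nt before the stop codon): gacccggattcgGGACaggaactggtatg
Pabpn1 (chr14:54898216-54898244, plus strand, A 174 nt after the stop codon): ctaactgaggagGGACctgctctgggagt
Zfhx2 (chr14:55062569-55062597, minus strand, A 21 nt after the stop codon): aaaccaagatggGGACaagagagggcctc
Nefh (chr11:4939105-4939133, minus strand, A 226 nt after the stop codon): tccccaggtgatGGACaattatgatagct
P2ry12 (chr3:59217234-59217262, minus strand, A 37 nt before the stop codon): aacaagaagaaaGGACaagaaggtggcga
The windows share the motif because they were centred on it, and the annotated stop codon of the gene falls in none of them. Arf6 and P2ry12 carried the motif in coding sequence, and in Nr2f1 the summit fell on the A itself.

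Stop-codon regions were called more regularly than the rest. Of 5959, 2828 (47.5%) had a peak in all 14 libraries and 457 (7.67%) in 1, with a median of 13 libraries. The other regions had a median of 5 libraries, and 22.8% of them were called in all 14. Against the most similar classes the gap was smaller, with 37.1% in all 14 among 5684 other 3′UTR regions and 39.6% among 8101 other coding regions. Regions of single libraries were short, with a median width of 90 nt, while those of all 14 had a median of 421 nt. A region spans all the peaks merged into it, so its width can only grow as libraries add peaks.

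**Figure D1:**
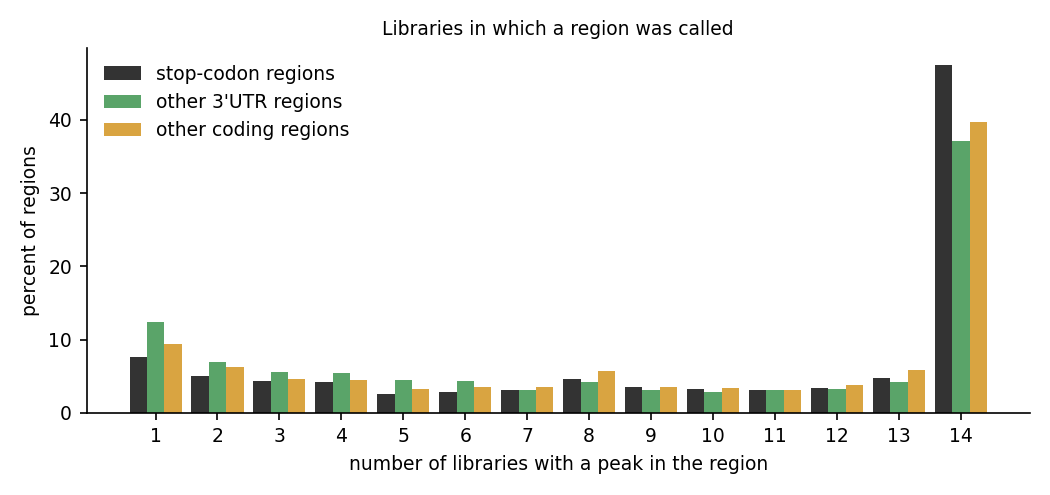
Percent of regions (y axis) by the number of libraries in which a peak was called (x axis), for stop-codon regions, other 3′UTR regions and other coding regions. The bar at 14 libraries stands at 47.5% for stop-codon regions, against 37.1% and 39.6%.

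The strongest stop-codon region in the series was that of Jund. Strength was read in 2 ways: as the deposited fold enrichment, the IP pileup at the summit over the local background, and as the percentile of a peak's −log10 q within its own list. By mean percentile over the 14 libraries the leading 6 were Jund, a subunit of the AP-1 transcription factor, Cdk5r1, a neuronal activator of the kinase Cdk5, Nr2f1, a nuclear receptor that patterns the cortex, Arf6, a small GTPase of membrane traffic, Pabpn1, a nuclear poly(A)-binding protein, and Map1b, a microtubule-associated protein of growing axons. Their mean percentiles ran from 99.6 (Map1b) to 100 (Jund). Jund had a fold enrichment of 53.8 to 76.8 in the 6 cerebellum libraries (median 57.3) and of 187 to 238 in the 8 cerebrum libraries (median 222). Arf6 ran from 50.8 to 68.2 in cerebellum (median 54.8) and from 130 to 188 in cerebrum (median 173). Map1b ran from 20.3 to 30.2 in cerebellum (median 23.5) and from 35.4 to 49.2 in cerebrum (median 43.0).

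The tissues did not overlap for any of these 3, but folds were higher in cerebrum throughout: over the 9215 regions called in all libraries the median difference of the deposited log2 fold was 0.87, and over the 2828 stop-codon regions among them 0.84. Differences between tissues are therefore given after quantile normalization, as differences from this common shift. The summit of Pabpn1 lay 165 nt after its stop codon and past the annotated end of the gene, and its stop codon is shared with the read-through gene Gm20521. Jund and Arf6 had a peak elsewhere on their exons in 1 of 14 libraries, whereas Cdk5r1, Nr2f1 and Map1b had one in all 14.

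Peaks of stop-codon regions ranked higher in their lists than the rest of the list as a whole, but not higher than other coding peaks in P0 cerebrum. Their median percentile was 56.8 to 62.1 over libraries (mean 59.5 ± 1.56, SD, n = 14) against 46.5 to 47.9 for all other peaks (47.2 ± 0.341, SD, n = 14). The difference of 12.3 percentile points was positive in 14 of 14 libraries (exact test by flipping signs, two-sided, p = 0.000122, which is the lowest that 14 libraries allow, adjusted p = 0.000427 over the 7 single-value comparisons). It was 6.26 when only peaks with a summit in an exon were compared. Among the strongest 10% of a list 26.7% to 35.7% of peaks were in stop-codon regions, and among the weakest 10% 11.8% to 19.1%. Against the most similar classes the gap was smaller. Other 3′UTR peaks had median percentiles of 52.5 to 57.6 (mean 55.6 ± 1.62, SD, n = 14). Other coding peaks ranked lower in cerebellum, with medians of 49.2 to 53.2. In each of the 4 P0 cerebrum libraries their median was above that of stop-codon peaks, at 61.7 to 63.1 against 59.8 to 62.1.

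Summits were most frequent just after the stop codon. The rule itself places these regions near stop codons, and positions within them are given as a description. In single libraries the median summit lay 26 to 41 nt downstream of it, and 31.4% to 35.1% of summits lay within 50 nt on either side. Of the summits, a median over libraries of 22.4% fell in the 100 nt before the stop codon and 33.6% in the 100 nt from its first base on. By the highest peak of each region, 3868 (64.9%) had their summit in a 3′UTR, 2006 (33.7%) in coding sequence, 62 in an intron, 18 outside genes and 5 in a 5′UTR. Because the rule used the midpoint of the merged region, 652 highest summits (10.9%) lay more than 200 nt from a stop codon.

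**Figure D2:**
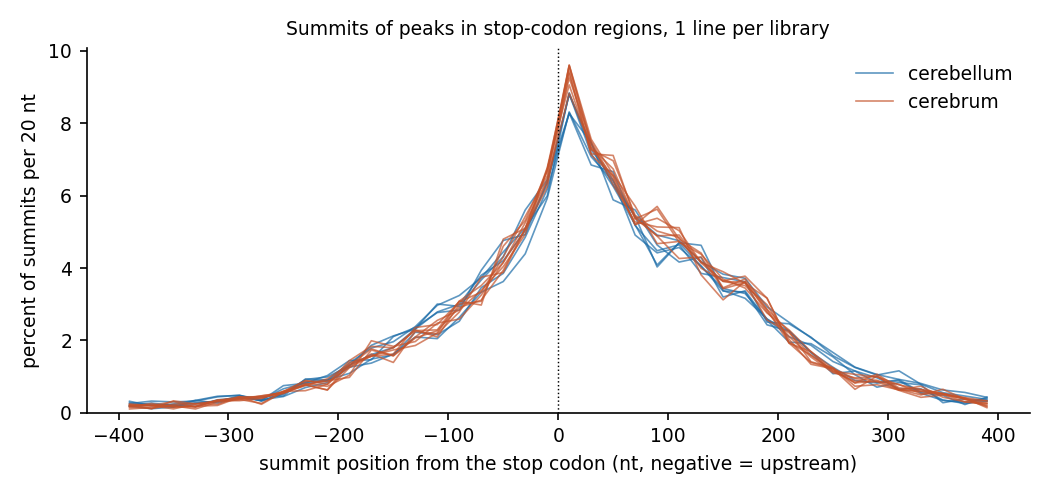
Summit position relative to the stop codon in nt (x axis, negative values upstream) against the percent of a library's stop-codon summits per 20 nt (y axis), with 1 line per library coloured by tissue. All 14 lines peak just after the stop codon, and 34.1% to 38.9% of summits lie upstream of it.

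The side of the stop codon did not differ detectably between tissues or ages. The share of summits upstream was 38.9% and 38.5% in P0 cerebellum, 38.9%, 38.9%, 34.1% and 36.0% in P7 cerebellum, and 36.0% to 37.6% in the 8 cerebrum libraries (median 36.4%). Cerebrum minus cerebellum came to -0.895 percentage points (exact test by permutation, two-sided, p = 0.250, adjusted p = 0.350). The low value of 34.1% belonged to the P7 cerebellum female F1i library, and without it the difference was -1.58 points (exact permutation test, unadjusted p = 0.0117). In cerebrum, P7 minus P0 was -0.182 points (exact permutation test, p = 0.686).

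Genes with a stop-codon region differed from other genes in the build of their last exon. Taking 1 stop codon per protein-coding gene, 5730 of 21673 genes (26.4%) had a region, and 4356 others had peaks elsewhere on their exons. The stop codon lay in the last exon in 98.2% of the former and 94.1% of the latter. It lay less than 100 nt from the start of its exon in 17.1% against 28.2%, a gap in part set by the rule, as described below. The median distance was 197 against 169 nt, but the upper quartile went the other way, at 389.75 against 708.25 nt. The median 3′UTR was of similar length, 1320.5 against 1291.5 nt. The codon TGA was used by 52.7% of genes with a region, by 49.2% of genes with peaks elsewhere and by 47.5% of genes without an exon peak. These shares are descriptions, since genes are not independent replicates.

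Among genes with any exon peak, the share with a stop-codon region rose and then fell with the distance from the exon's start. The 200 nt of the rule are counted along the genome, so that near an exon's start a part of them is intron, and the low shares there are in part set by the rule. It was 35.8% (297 genes) under 50 nt, 49.4% of 1379 genes from there to 100 nt, 61.5% of 3147 between 100 and 200 nt and 75.7% of 1875 between 200 and 400 nt. It then fell to 60.9% of 1187 between 400 and 800 nt and to 40.4% of 1669 beyond. Counted in each library separately, the share was 18.7% to 26.9% in the nearest bin and 53.5% to 62.5% between 200 and 400 nt, so the ranges over libraries did not overlap.

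**Figure D3:**
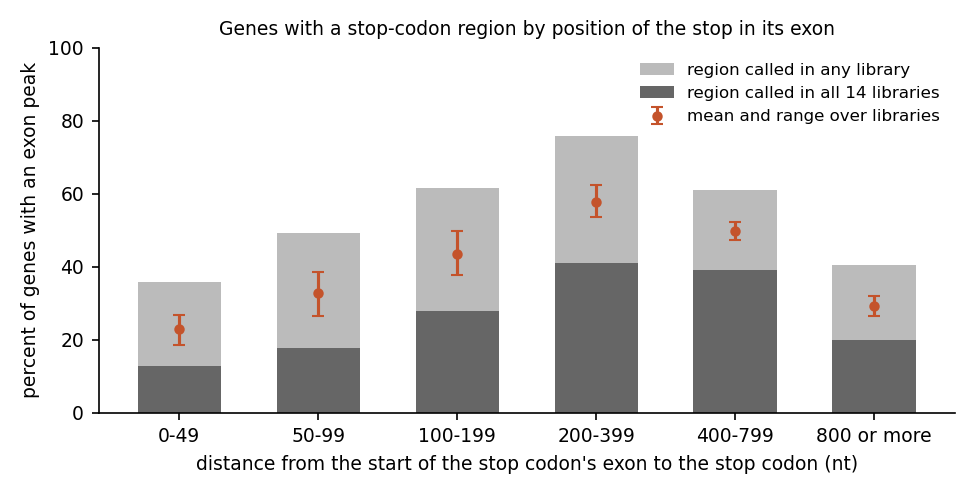
Percent of genes with an exon peak that had a stop-codon region (y axis) by the distance in nt from the start of the stop codon's exon to the stop codon (x axis), with light bars for any library, dark bars for all 14 and points with bars for the mean and range over libraries. The light bars rise from 35.8% to 75.7% and fall to 40.4%.

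The motif was frequent at these summits and in the sequence around these stop codons. GGAC was searched on the transcript strand alone and counted where its A lay no more than 25 nt away. In cerebellum 52.9% to 57% of stop-codon summits had it (median 55.2%, n = 6) and in cerebrum 45.6% to 47.4% (median 46.3%, n = 8), so the tissues did not overlap. With the same number of peaks from each list the ranges were 53.7% to 57.1% and 46.6% to 48.3%. Other exonic peaks had it in 51.1% to 53.8% in cerebellum and 43.3% to 46.4% in cerebrum. The excess at stop codons over all these peaks was 2.09 percentage points, positive in 14 of 14 libraries (exact test by flipping signs, p = 0.000122, again the lowest possible, adjusted p = 0.000427). Against other coding peaks alone the means were 55.0% and 52.2% in cerebellum but 46.4% and 46.3% in cerebrum, where coding peaks were above stop-codon peaks in P0 female F1i, P0 female F1r and P7 female F1r, and other 3′UTR peaks had means of 52.6% and 42.6%. Any DRACH, the wider consensus, lay at 93.2% to 95.9% of stop-codon summits (mean 94.1%), beside means of 94.7% for other 3′UTR and 91.8% for other coding summits.

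Longer forms of the motif, which can share the window and are counted separately, differed unequally between tissues. GGACT was found at 24.6% ± 1.31 (SD, n = 6) of stop-codon summits in cerebellum and at 18.4% ± 0.549 (SD, n = 8) in cerebrum. GGACA stood at 22.0% ± 0.560 and 19.1% ± 0.265, and GGACC at 14.7% ± 0.262 and 12.7% ± 0.214. GAACT, which lacks the leading GG, also had a higher mean in cerebellum, at 16.96% ± 1.11 and 14.97% ± 0.313. AGACT, which lacks it too, was at 18.3% ± 0.539 and 18.6% ± 0.541, and TGACT at 14.29% ± 0.790 and 14.57% ± 0.417. AAACT went the other way, at 10.2% ± 0.833 and 12.5% ± 0.203. Over all libraries GGACC stood at 13.5% of stop-codon summits, 11.1% of other 3′UTR summits and 14.1% of other coding summits. In the 100 nt of exon before the stop codon, 47.0% of genes with a stop-codon region had a GGAC, against 37.2% of genes with peaks elsewhere and 31.2% without peaks, and in the 100 nt after it 46.0%, 31.6% and 29.5%. A match describes the sequence and is not a measured site.

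The tissues differed in how much of a list lay at stop codons. The share of peaks in stop-codon regions was 24.4% and 23.5% in the P0 cerebellum libraries and 24.5%, 24.8%, 25.7% and 25.4% in those of P7 cerebellum. It was 20.4%, 19.3%, 19.3% and 21.0% in P0 cerebrum and 23.6%, 23.3%, 23.7% and 23.4% in P7 cerebrum. The P0 cerebrum libraries were the low ones, and they did not overlap with any other group. Cerebrum minus cerebellum was -2.97 percentage points (exact test by permutation, two-sided, p = 0.00533, adjusted p = 0.0124), and -1.64 with P7 libraries alone (exact permutation test, p = 0.0286, the smallest that 4 against 4 allows). P7 minus P0 in cerebrum was 3.45 points (exact test by permutation, p = 0.0286, again the lowest possible, adjusted p = 0.05).

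The groups also differed in the length of their lists. With the 16687 strongest peaks of every list the differences were -1.41 (exact permutation test, p = 0.0113) and 1.67 points (exact permutation test, p = 0.0286). With only exonic summits they were -1.06 and 1.07 points. The number of stop-codon regions called went the opposite way, from 3801 to 4282 in cerebellum (median 3966, n = 6) and from 4186 to 4749 in cerebrum (median 4437, n = 8), with the P0 cerebrum libraries at 4352 to 4749.

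**Figure D4:**
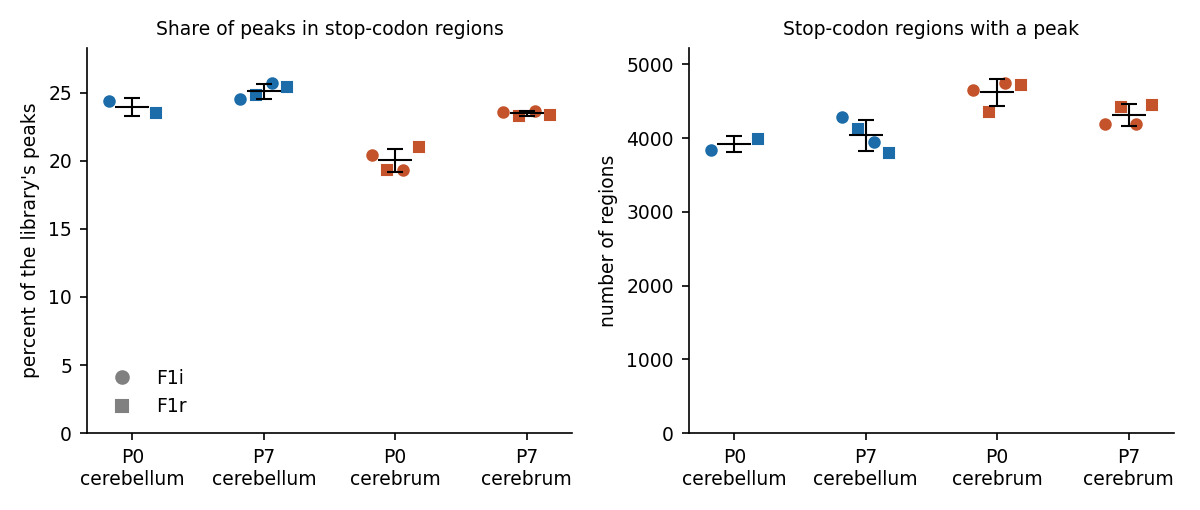
Left, percent of a library's peaks that lie in stop-codon regions; right, number of stop-codon regions with a peak (y axes), by group (x axis). Each point is a library (circles F1i, squares F1r) and black bars give the mean and SD; the P0 cerebrum libraries are lowest on the left, at 19.3% to 21.0%.

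Most stop-codon regions were shared by the tissues: 4501 (75.5%) had a peak in at least 1 library of each, beside 52.9% of all regions. Another 973 (16.3%) were called in cerebrum alone, beside 36.2% of all regions, and 485 (8.14%) in cerebellum alone, beside 10.9%, with 8 libraries of cerebrum and 6 of cerebellum. Presence was tested per region (Fisher's exact test, Benjamini-Hochberg over the 24722 regions of the series called in some but not all libraries). Of 3131 stop-codon regions tested, 284 (9.07%) were called more often in cerebrum, beside 7.78% of all regions tested, and 72 (2.30%) more often in cerebellum, beside 1.87%. The split depended on list length: with equal lists it was 149 and 161. Without any single cerebellum library the total of 356 fell to between 171 and 186, and with P7 libraries alone, where 4 against 4 could not pass the adjustment, it was 0, with 342 at an unadjusted exact p under 0.05. Of the regions more often in cerebrum 28.5% had a GGAC at the highest summit and 25.7% had that summit upstream of the stop codon. Of those more often in cerebellum the shares were 61.1% and 50%, beside 48.5% and 36.8% of all stop-codon regions. Both sets were called from the lists of unequal length.

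The leading regions of cerebrum, called in all 8 libraries and in 0 of cerebellum, began with Fzd3 and Emx1. Fzd3, a Wnt receptor that guides axon tracts, had a fold enrichment of 13 to 21.9 (median 14.8) with a summit 60 nt before the stop codon. Emx1, a homeobox factor of the dorsal forebrain, ran from 16.2 to 30.2 (median 20.5) with a summit 9 nt after it. Rc3h2, an RNA-binding ubiquitin ligase, ran from 13.5 to 17.6 (median 15.3), Cltc, the clathrin heavy chain, from 5.98 to 9.68 (median 7.80), and Rpl15, a ribosomal protein, from 6.40 to 11.8 (median 8.65). Being called in all 8 cerebrum libraries and in 0 of cerebellum fixes Fisher's exact test, so each had the same adjusted p = 0.0066. In Fzd3 and Emx1 no GGAC lay within 25 nt of the summit. Fzd3 had other exon peaks in 2 of 6 cerebellum libraries, and the other 4 genes in 0.

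In cerebellum, called in all 6 libraries and in 0 of cerebrum, the region of En2, a homeobox factor of the midbrain and cerebellum, led with a fold of 12.1 to 18.9 (median 16.8), 74 nt before its stop codon. Psmd4, a ubiquitin receptor of the proteasome, ran from 4.83 to 6.87 (median 5.72), and Hmgb1, a chromatin protein, from 2.80 to 5.51 (median 3.44). Tfap2a, an AP-2 transcription factor, had folds of 15, 23.1, 26.4, 23.4, 7.31 and 29.1 in the libraries in the order P0 male F1i and F1r, P7 male F1i and F1r, P7 female F1i and F1r. Lbx1, a homeobox factor of hindbrain and spinal interneurons, had 5.56, 22.2, 50.2, 34.2, 9.14 and 44.7 in the same order. The lowest values of both genes came from the libraries with peaks on 0 and 1 of the 7 Hox genes, and the part of hindbrain tissue in them was not tested. En2 was 16.8, its median, in the library with 0 of those genes and lowest, at 12.1, in the library with 1.

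Strength differed between tissues at 55.9% of the stop-codon regions tested and at 56.1% of the other regions. Among the 2828 stop-codon regions called in all 14 libraries (the other 3131 had no value in at least 1 library and were not tested), 790 (27.9%) were stronger in cerebrum, beside 29.5% of all 9215 regions tested, and 792 (28%) were stronger in cerebellum, beside 26.6% (limma with age as a covariate, adjusted p of at most 0.05). The median log2 difference was 0.01 over stop-codon regions and 0.03 over all regions, so these shares were near the background. The median absolute log2 difference of called stop-codon regions was 0.67, below the common shift of 0.87 toward cerebrum. A region called stronger in cerebellum is so relative to that shift, and its deposited folds need not be higher there. With P7 libraries alone the counts were 650 and 662. A difference of at least 1 on the log2 scale was found at 141 regions stronger in cerebrum (4.99%, beside 5.05% of all regions tested) and 192 stronger in cerebellum (6.79%, beside 6.51%), again near the background.

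Dnajc6 and Dlg3 led the differences in the 2 directions. Dnajc6, the auxilin that uncoats clathrin vesicles, had folds of 3.91 to 6.96 in cerebellum (median 5.07) and of 24.3 to 40.5 in cerebrum (median 35.1), a log2 difference of 1.89 ± 0.150 (SE) after normalization (limma, adjusted p = 4.53e-09). Myh10, a non-muscle myosin, had 4.05 to 12.6 and 30.4 to 55.1 (log2 difference 1.88 ± 0.217), and Tmem70, an assembly factor of ATP synthase, 3.31 to 6.63 and 17.7 to 39.0 (1.78 ± 0.152). In the other direction Dlg3, a synaptic scaffold, had 19.1 to 38.5 in cerebellum (median 33.0) and 5.95 to 9.65 in cerebrum (median 6.79), a log2 difference of -2.82 ± 0.122 (limma, adjusted p = 8.46e-13). Tmem38a, a cation channel of the endoplasmic reticulum, had 35.0 to 63.6 and 9.25 to 17.6 (log2 difference -2.67 ± 0.150), Elmo1, an activator of Rac, 26.4 to 33.2 and 5.83 to 15 (-2.40 ± 0.148), and Cdk5r2, another activator of Cdk5, 51.2 to 90.6 and 22.7 to 31.3 (-2.33 ± 0.128). In none of these 7, which were chosen for their large differences, did the tissues overlap.

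**Figure D5:**
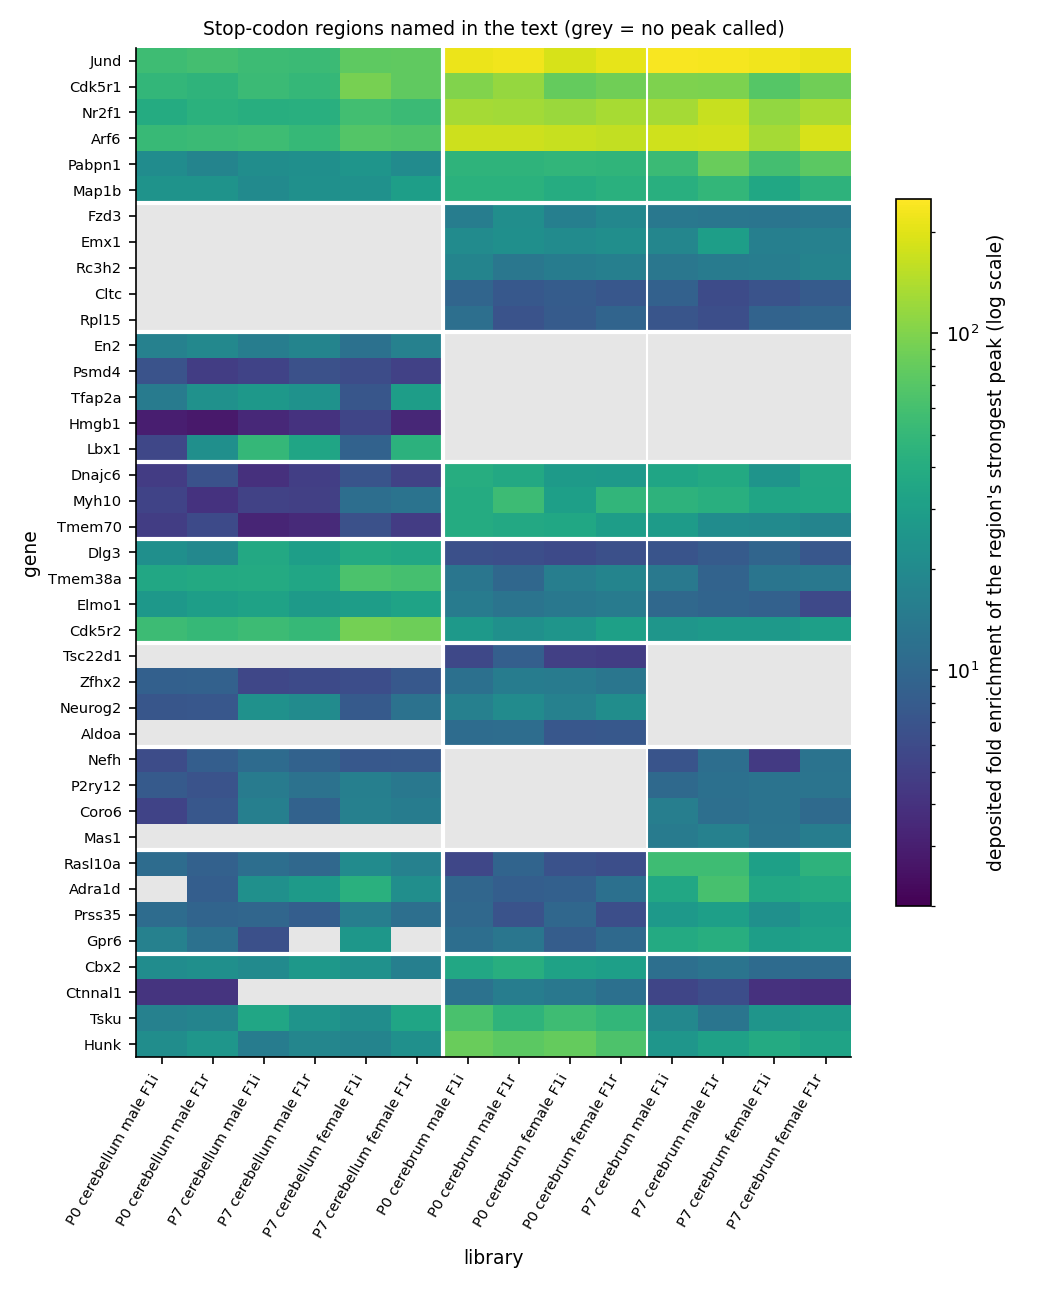
Deposited fold enrichment (colour, log scale) of the named stop-codon regions (rows, by gene) in the 14 libraries (columns), with grey for no peak. Blocks from top to bottom are the strongest regions, those called in cerebrum or in cerebellum only, those stronger in cerebrum or in cerebellum, those called at P0 or P7 only in cerebrum, and those stronger at P7 or P0 in cerebrum; Jund reaches 238 and Hmgb1 is as low as 2.80.

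Some stop-codon regions were called at a single age in cerebrum. Of 1916 called in some but not all of the 8 cerebrum libraries, 97 (5.06%) had a peak in all 4 P0 libraries and 0 P7 libraries, beside 8.58% of all such regions, and 35 (1.83%) in all 4 P7 and 0 P0 libraries, beside 0.889%. With equal lists the split turned to 28 and 79, so its direction changes with list length. No test was made, because 4 against 4 cannot pass an adjustment over regions. Values of 4 libraries are given in the order male F1i, male F1r, female F1i and female F1r. At P0 the region of Tsc22d1, a leucine zipper factor, had folds of 5.66, 8.63, 5.02 and 4.79, and that of Zfhx2, a homeobox factor, 12, 15.3, 14.8 and 13.3. Neurog2, which starts neuronal differentiation in cortical progenitors, had 16.4, 20.7, 16.7 and 21.3, and Aldoa, a glycolytic enzyme, 11, 11.2, 7.46 and 7.62. Zfhx2 and Neurog2 were called in all 6 cerebellum libraries, 4 of them at P7, whereas Tsc22d1 and Aldoa were called in 0.

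At P7 the region of Nefh, the heavy neurofilament chain of large axons, had folds of 7.03, 11.5, 4.57 and 12.7, and that of P2ry12, a receptor of microglia, 10.4, 11.9, 12.7 and 12.9. Coro6, a coronin of the actin cytoskeleton, had 15.8, 11.8, 12.6 and 10.7, and Mas1, a G protein-coupled receptor, 14.9, 16.7, 12.7 and 15.5. Nefh, P2ry12 and Coro6 were called in all 6 cerebellum libraries at both ages, and Mas1 in 0. Nefh and Coro6 had other exon peaks in 0 P0 cerebrum libraries, while Zfhx2 and Tsc22d1 kept peaks elsewhere on the gene in all 4 P7 libraries. Of the 5 microglial markers with a stop-codon region, P2ry12 was called at P7 alone in cerebrum. That held at 0.889% of all regions called in some but not all cerebrum libraries. Only 2 of the 5 were called in every cerebrum library and could be tested for strength between ages. These were Tmem119 and Cx3cr1, both stronger at P7, with log2 differences of 1.53 ± 0.168 and 0.77 ± 0.175 (limma, adjusted p = 5.60e-05 and 0.0086). Of all regions tested, 7.17% were stronger at P7.

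Strength at P7 against P0 was tested at the 3558 stop-codon regions called in all 8 cerebrum libraries. By fold enrichment 324 (9.11%) were stronger at P7, beside 7.17% of all 13355 regions, and 108 (3.04%) were stronger at P0, beside 6.85% (limma with cross as a covariate). The deposited log2 folds of all regions shifted by -0.22 from P0 to P7, and these counts are relative to that shift. The split was the other way round, 248 and 951, when the percentile of −log10 q took the place of the fold, a measure on which all regions fell by a median of 5.70 points. The regions called by fold kept their direction there in 316 of 324 and in 108 of 108. Without P0 female F1i the count of 432 was 280.

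Rasl10a had the largest rise. Rasl10a, a Ras-like GTPase, had folds of 5.63, 9.54, 6.69 and 6.34 at P0 and of 55.5, 55.4, 31.2 and 45.3 at P7, a log2 difference of 2.92 ± 0.194 (limma, adjusted p = 2.16e-06). Adra1d, an adrenergic receptor, had 9.85, 8.53, 8.77 and 11.8 against 36.1, 61.5, 36.4 and 38.1 (log2 difference 2.31 ± 0.176). Prss35, a protease-like protein, had 10.2, 6.89, 10 and 6.34 against 27.1, 30.4, 22.7 and 29.5 (1.96 ± 0.169), and Gpr6, an orphan receptor of striatal neurons, 11.4, 13.3, 8.35 and 10.5 against 38.1, 41.4, 30 and 31.5 (1.92 ± 0.181). All P7 values lay above all P0 values in each of the 4, which were chosen for their large rises. Cbx2 led the falls among the genes named. Cbx2, a Polycomb subunit, went from 35.9, 41.3, 32.6 and 30.8 to 11.7, 12.8, 10.8 and 10.7 (log2 difference -1.38 ± 0.159, limma, adjusted p = 7.56e-05), and Hunk, a protein kinase, from 82.8, 73.7, 79.4 and 65 to 25.1, 31.7, 38.1 and 32.7 (-1.09 ± 0.175). Tsku, a secreted leucine-rich protein, had 62.9, 46.5, 56.2 and 48.9 and then 19.1, 13, 24.9 and 27.6 (-1.19 ± 0.215), and Ctnnal1, a catenin-like protein, 12.4, 15.5, 13.8 and 11.8 and then 5.45, 6.25, 4 and 3.86 (-1.25 ± 0.192).

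In cerebellum, with 2 libraries against 4, 1 of 3112 stop-codon regions (0.0321%) was stronger at P7, beside 0.0194% of 10295 regions, and 0 were stronger at P0, beside 0% (limma). At an unadjusted p under 0.05 there were 309. The region called was that of Evi2a, a membrane protein gene, with folds of 7.22 and 6.34 at P0 and of 34.8, 25.5, 30.5 and 29 at P7. It was not called by the percentile, and 21 regions were called without P7 female F1i and 0 without P0 male F1i, P0 male F1r, P7 male F1r or P7 female F1r. The difference between the age effects of the tissues was tested at the 2828 regions. It passed at 24 (0.849%) with a higher effect in cerebrum, beside 0.868% of 9215, and at 7 (0.248%) with a lower one, beside 0.347%. Rasl10a, Samd5 and Lrrc10b led the first set with log2 differences of 2.23 ± 0.345, 2.03 ± 0.390 and 1.94 ± 0.400, and Tsku, Gm28042 and Apeh the second with -1.80 ± 0.369, -1.48 ± 0.327 and -1.44 ± 0.317. Samd5 had 27.8 and 31.2 at P0 but 8.94, 10.7, 26.8 and 12 at P7 in cerebellum, where the 26.8 came from P7 female F1i. With the percentile in place of the fold Samd5 and Lrrc10b did not pass (limma, adjusted p = 0.0613 and 0.0707), and the split was 32 and 178. Without P7 cerebellum female F1i 90 regions passed, without P0 cerebellum male F1i 7, and without any one of the 8 cerebrum libraries other than P0 female F1i 11 to 19.

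No difference between the crosses passed a test over the 7 pairs. The share of peaks at stop codons differed by -0.134 percentage points between F1r and F1i (exact test by flipping signs of the pairs, p = 0.734), and by -0.0588 without both P7 cerebrum pairs (exact, p = 0.938). A region counted as directed when 5 or more pairs had its peak in 1 cross alone and 0 pairs had it in the other alone. Toward F1r this held at 1 of 3131 stop-codon regions (0.0319%), beside 0.0485% of 24722, and toward F1i at 2 (0.0639%), beside 0.0404%. The first was Ccl28, a chemokine of epithelia, with folds of 9.51 in P0 cerebellum, 7.95 and 8.15 in P0 cerebrum and 12.3 and 4.82 in P7 cerebrum, all F1r. The others were Nkpd1, with folds of 6.03 to 7.27 in 3 cerebellum and 7.17 and 7.52 in 2 cerebrum libraries, all F1i, and Tmem38b, an ion channel subunit, with 3.84 to 6.25 in 5 F1i libraries. These were weak peaks, at mean percentiles of 28.8, 19.5 and 6.41. Without both P7 cerebrum pairs 1 region was left. Fold enrichment differed between crosses at 0 of 2828 regions in either direction, beside 0% of all regions (limma with pair as a block, lowest adjusted p = 0.840), with 167 (5.91%) at an unadjusted p under 0.05.

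Lists of genes were examined by the same tests, and each count is a description. Counts of strength stand beside 29.5% of all regions tested that were stronger in cerebrum and 26.6% in cerebellum. For age in cerebrum the shares of all regions were 7.17% stronger at P7 and 6.85% at P0. Of 23 m6A writers, erasers and readers, 8 (34.8%) had a stop-codon region, beside 26.4% of protein-coding genes. That background takes in 11587 genes without an exon peak. Among genes with one, 5730 had a stop-codon region and 4356 did not, so the 34.8% is not read as an excess. The same backgrounds hold for the lists below, and none of their counts of genes with a region is read as an excess or a lack. Of the 8 m6A genes with a region, 4 of 4 tested for strength were stronger in cerebrum. They were Ythdf2, a cytoplasmic reader, with folds of 8.96 to 12.6 in cerebellum and 25.3 to 60.2 in cerebrum (log2 difference 1.12 ± 0.130), its relative Ythdf3 (0.99 ± 0.193), and the writer subunits Wtap (0.64 ± 0.194) and Zc3h13 (0.59 ± 0.129). Ythdc1, the nuclear reader, had a region called in all 6 cerebellum libraries at 3.24 to 5.24 and in 0 of cerebrum. Such a split fixes the value of Fisher's exact test, at an adjusted p = 0.0066. The writer subunit Virma fell from P0 to P7 in cerebrum, by -0.74 ± 0.208 on the log2 scale (limma, adjusted p = 0.0269).

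Transmitter receptors moved both ways. Among ionotropic glutamate receptors 11 of 18 genes had a region. Of 7 tested 3 were stronger in cerebrum, beside 29.5% of all regions tested, and 3 in cerebellum, beside 26.6%. Grid1, a delta receptor gene, had 7.03 to 20.4 in cerebellum and 42.8 to 71.4 in cerebrum (log2 difference 1.62 ± 0.195). Grik5, a kainate receptor subunit, stood at 34.4 to 47.3 and 36.6 to 51.0, overlapping as deposited and -0.995 ± 0.122 relative to the common shift. Among GABA-A receptor subunits 11 of 15 had a region, with 2 of 7 stronger in cerebrum and 2 in cerebellum, and 2 of 9 stronger at P7. Gabrq had 11.5 to 37.7 and 11.7 to 33.2 (-1.38 ± 0.254), and did not pass with the percentile of −log10 q (limma, adjusted p = 0.0507). Gabra4 rose in cerebrum from 33.2, 30.9, 38.5 and 27.3 at P0 to 63.9, 54.4, 37.3 and 46.6 at P7 (0.80 ± 0.168, limma adjusted p = 0.00559).

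Of 28 cerebellar transcription factors 16 (57.1%) had a region. Among all genes with an exon peak 5730 had one and 4356 did not. Of 6 tested 3 were stronger in cerebellum, beside 26.6% of all regions tested, and 0 in cerebrum, beside 29.5%. En2 and Pax3 were called more often in cerebellum. Gli2 (log2 difference -1.67 ± 0.232), Lhx1 (-1.57 ± 0.154) and Gbx2 (-0.74 ± 0.228) were the 3, and Gbx2 did not pass with the percentile of −log10 q in place of the fold (limma, adjusted p = 0.379). Of 24 forebrain factors 12 had a region. Of 4 tested, Cux2 (0.97 ± 0.115) and Sox5 (0.50 ± 0.167) were stronger in cerebrum and Otx1 (-0.50 ± 0.177) in cerebellum. Otx1 did not pass with the percentile (limma, adjusted p = 0.650). The differences of Gbx2 and Otx1 were smaller than the common shift of 0.87 toward cerebrum, so both are stronger in cerebellum only relative to it. Of 27 progenitor and newborn neuron genes 16 had a region, with 1 of 8 stronger in cerebrum and 2 in cerebellum, Pax6 (-1.47 ± 0.167) the largest. Of 22 astrocyte genes 7 had one, with 3 of 6 stronger in cerebrum, led by the glutamate transporter Slc1a3 (1.20 ± 0.151), and 1 in cerebellum.

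Of 25 oligodendrocyte and myelin genes 10 had a region. Nkx6-2 was called in 6 cerebellum and 0 cerebrum libraries at 6.93 to 12.7, and of 5 tested 3 rose and 1 fell from P0 to P7 in cerebrum, the rises led by Nkx2-2 (1.11 ± 0.178) with 19.7, 16.5, 24.2 and 24.6 and then 46.8, 36.4, 31.3 and 44.3. Of 25 chromatin regulators 9 had a region, with 2 of 6 stronger in cerebrum, Chd4 (1.31 ± 0.133) and Kmt2a (0.46 ± 0.134), and 0 in cerebellum. Of 74 imprinted genes in the annotation 24 had one, 3 of 12 stronger in cerebrum, led by Ago2 (1.11 ± 0.129), 2 in cerebellum, and 0 directed by cross. The counts between tissues again stand beside 29.5% and 26.6% of all regions tested. The median log2 difference between tissues was -0.52 for cerebellar factors, 0.81 for the m6A genes and 0.09 for imprinted genes, beside 0.03 over all regions.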

How the data were processed

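m6A-seq peak lists of 14 IP libraries were analysed, and the 14 input libraries were not used here. The authors trimmed demultiplexed reads, aligned them to mm10 with strain variants masked, removed duplicates, split reads by strand and called peaks in each library without pooling. MACS2 was run by strand, with reads extended by 80 nt instead of a modelled fragment length. The submitters' processing notes name fastp 0.21.0, HISAT2 2.1.0, MACS2 2.1.2 and featureCounts 1.6.0. The deposited fold enrichment is a ratio of pileup to local background at the summit, and the deposited −log10 p and −log10 q values are those of the authors' peak caller. Which control each call used is not given in the sources used here, so that the background behind a fold is known only as the caller's local background.

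Peaks were merged by an overlap of at least 1 nt per strand, and the highest peak of a region gave its value in a library. Stop codons came from the GENCODE M21 basic annotation. Strength was tested with limma 3.58.1 (R 4.3.3) on log2 fold enrichment, quantile-normalized, over all regions of the series called in every library compared, with age (tissues), cross (ages) or pair (crosses) in the model. Presence was tested with Fisher's exact test, and single values with exact permutation tests (scipy 1.17.1, Python 3.11.15). All p-values over regions were adjusted by the Benjamini-Hochberg method over the whole series, with a threshold of 0.05. The scripts were tested on simulated data. Pairs were formed from the labels: an F1i and an F1r library of the same tissue, age and labelled sex.

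The regions, the gene lists and the rule for named genes were chosen with earlier results of these data known. That rule took the 6 strongest regions, the 5 strongest of those exclusive to a tissue, the 4 strongest of those exclusive to an age, the 4 largest differences in strength per direction for tissue and for age in cerebrum, all regions directed by cross, and up to 4 list members past a test. The 3 largest per direction where age effects differed between tissues, and the region called in cerebellum, were named after their values were seen. Genes of chromosome 18 were not named, and some other genes that met the rule are not reported here. Alternatives were other distances from the stop codon, a stricter q, equal list lengths, exonic summits, median centring, the percentile of −log10 q, pairs as a block, and leaving out libraries or pairs.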

Additional observations from a re-analysis of the deposited data

Results flagged for a closer look

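Of 121 groups of 4 to 10 libraries examined among the named regions, 4 had a highest library set apart from the others by Dixon's criterion, which chance alone gives in about 1 group in 20. Emx1 stood at 30.2-fold in the P7 cerebrum library labelled male F1r, against 16.2 to 18.4 in the other 3. Adra1d stood at 61.5 in the same library, against 36.1 to 38.1. Lrrc10b stood at 15.7 in the P7 cerebellum female F1i library, against 5.31 to 6.46. Gm28042, whose stop codon is shared with Pla2g4b, stood at 28.1 in the P0 cerebrum female F1r library, against 21.7 to 22.8. The age effect on fold enrichment differed between cerebrum and cerebellum, by the interaction term in limma, at 31 stop-codon regions.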

How the results depend on the processing

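Over all results and alternatives, 202 values were kept: single values by direction and side of the threshold, and counts by a total within 1.5 times. The split of a count by direction was not part of this comparison. With equal lists that split turned for presence between tissues and for regions exclusive to an age in cerebrum, though their totals were kept. The rest are given here, and their causes were not tested except where the alternative itself takes in fewer regions or libraries. A limit of 100 nt, which leaves fewer regions, gave 914 regions differing in strength between tissues, 258 between ages in cerebrum, 0 between ages in cerebellum and 16 with an age effect that differed between tissues. A limit of 400 nt gave 5 regions directed by cross, 2 differing between ages in cerebellum and 54 with differing age effects, and the upstream share of P7 minus P0 in cerebrum turned to 0.0374 points. With equal lists that share was 0.323. The percentile of −log10 q gave 1199 regions between ages in cerebrum, 0 in cerebellum and 210 with differing age effects. With P7 libraries alone presence differed between tissues at 0 regions, and without both P7 cerebrum pairs 1 region was directed by cross.

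Leaving out single libraries or pairs gave ranges of 171 to 390 regions for presence between tissues, 280 to 395 for strength between ages in cerebrum, 0 to 21 in cerebellum, 7 to 90 for differing age effects and 0 to 2 for cross. The upstream share between tissues ran from -1.58 to -0.617 points. The share of peaks between crosses ran from -0.443 to 0.0215 points, the last without the P0 cerebrum male pair. With pairs as a random replicate block, 566 regions (409 and 157) differed between ages in cerebrum, against 432 without it. The relative depth of the IP libraries ran from 0.560 to 1.57, and its part in the length of a list was not tested.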
